A study of Mus musculus with 49 samples.

Results

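Integrins are adhesion receptors made of an alpha and a beta chain, and the pairing of the chains sets which ligand a T cell can hold. The 10 integrin subunit genes described here were Itga1, Itga2, Itga4, Itga6, Itgae, Itgal, Itgav, Itgb1, Itgb2, and Itgb7. They were taken by symbol, with the longest transcript of each, and make up 10 of the 23992 gene symbols in the deposited RNA-seq files. All 10 passed the filter on low counts that left 15566 genes for testing, so every member was tested.

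The RNA came from splenic CD8+ T cells of mice on a C57BL/6J background, isolated by negative selection and either taken at 0 hr or kept for 4, 24, or 48 hr in medium with IL-2 at 500 IU/ml. Knock-in (KI) cells were homozygous either for Stat5a with the change Y694F or for Stat5b with the change Y699F, each of which removes the tyrosine whose phosphorylation activates the protein, and each line had its own wild-type (WT) littermates. The mice were of both sexes and 8 to 24 weeks old. The alleles were made by CRISPR-Cas9 in zygotes of B6D2F1 mice and backcrossed to C57BL/6J for 6 generations. The alleles were carried in every cell of the animal, not only in T cells. Each of the 16 groups of line, genotype, and time held 3 libraries, except Stat5a KI at 4 hr with 2, because its replicate 3 had only 1028515 of its 18122792 mapped reads on the longest transcripts and was left out. The other 47 libraries held 17369112 to 60200653 reads on the longest transcripts. A count of 3 reads in a library corresponds to 0.0498 to 0.173 CPM (reads scaled to library size), and the lowest member count was 48 reads.

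Among the integrins of T cells, LFA-1 (Itgal with Itgb2) binds ICAM molecules and holds T cells to antigen-presenting cells. The Itga4 chain pairs with Itgb1 to bind VCAM-1 or with Itgb7 to bind MAdCAM-1 of gut vessels. Itgae encodes the alpha chain of CD103, which pairs only with Itgb7, binds E-cadherin of epithelia, and is carried by naive and tissue-resident CD8+ T cells. IL-2 signals to the nucleus mainly through STAT5A and STAT5B, which bind DNA at the motif TTCNNNGAA.

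The library values show whether the labelled cells were there. Cd8a ranged from 81.0 to 342.5 RPKM (reads scaled to transcript length and library size) and Cd3e from 153.2 to 298.7 RPKM over the 47 libraries. The levels of Stat5a and Stat5b RNA say nothing of the KI alleles, which change a codon and not the number of reads. The libraries also held marker RNA of other cell types, as described with the results they accompany.

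Promoter sequence was shown for Itga4 and Itgb7 because both fell by 48 hr in at least 1 WT line and both have an entry in the table of RefSeq promoters used here (build GRCm38.p6), in which 6 of the 10 members were matched. The 250 bases before the transcription start are printed 5′ to 3′ in the direction of the gene, with any TGTGGT, the letters of the RUNX motif, in capitals on either strand. The Itga4 window lies at chr2:79255176-79255425 on the plus strand, and the Itgb7 window at chr15:102231936-102232185 on the minus strand. The Itgb7 window precedes the start of the curated transcript and lies inside the annotated span of the gene, which a predicted transcript extends further upstream.
Itga4: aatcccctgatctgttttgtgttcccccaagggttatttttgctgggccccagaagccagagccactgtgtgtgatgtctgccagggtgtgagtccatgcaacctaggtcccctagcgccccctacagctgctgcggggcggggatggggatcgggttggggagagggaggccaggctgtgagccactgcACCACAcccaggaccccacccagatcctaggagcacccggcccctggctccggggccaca
Itgb7: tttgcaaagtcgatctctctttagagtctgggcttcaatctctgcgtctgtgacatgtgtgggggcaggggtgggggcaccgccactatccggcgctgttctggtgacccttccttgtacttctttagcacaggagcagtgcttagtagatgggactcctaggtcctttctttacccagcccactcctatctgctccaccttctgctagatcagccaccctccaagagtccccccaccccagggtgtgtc
The Itga4 window held 1 match to TGTGGT, read here as its reverse complement, which begins 60 bases before the start. None of the 6 member windows held TTCNNNGAA, which reads the same on both strands and was present in 7.02% of the 32851 windows of that length, and 1 of the 6 held TGTGGT, which was present in 14.0%. No match says only that the letters are not in the window.

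By level per length, Itgb7 was the highest member, with a median of 132.9 RPKM over the 47 libraries. It was followed by Itgb2 with 101.1 RPKM, Itgal with 88.1 RPKM, Itga4 with 52.9 RPKM, and Itgb1 with 45.1 RPKM. Itgae had a median of 19.1 RPKM, Itga6 of 16.6 RPKM, and Itgav of 4.44 RPKM. Itga1 and Itga2, the alpha chains of collagen receptors, were low, with medians of 0.683 and 0.631 RPKM. Itgae varied most between groups: its highest group mean, 29.1 RPKM in Stat5b KI at 4 hr, was 14.96 times its lowest, 1.95 RPKM in Stat5b line WT at 48 hr. The same ratio was 6.25 for Itga2 and between 2.04 and 3.92 for the other 8 members.

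**Figure D1:**
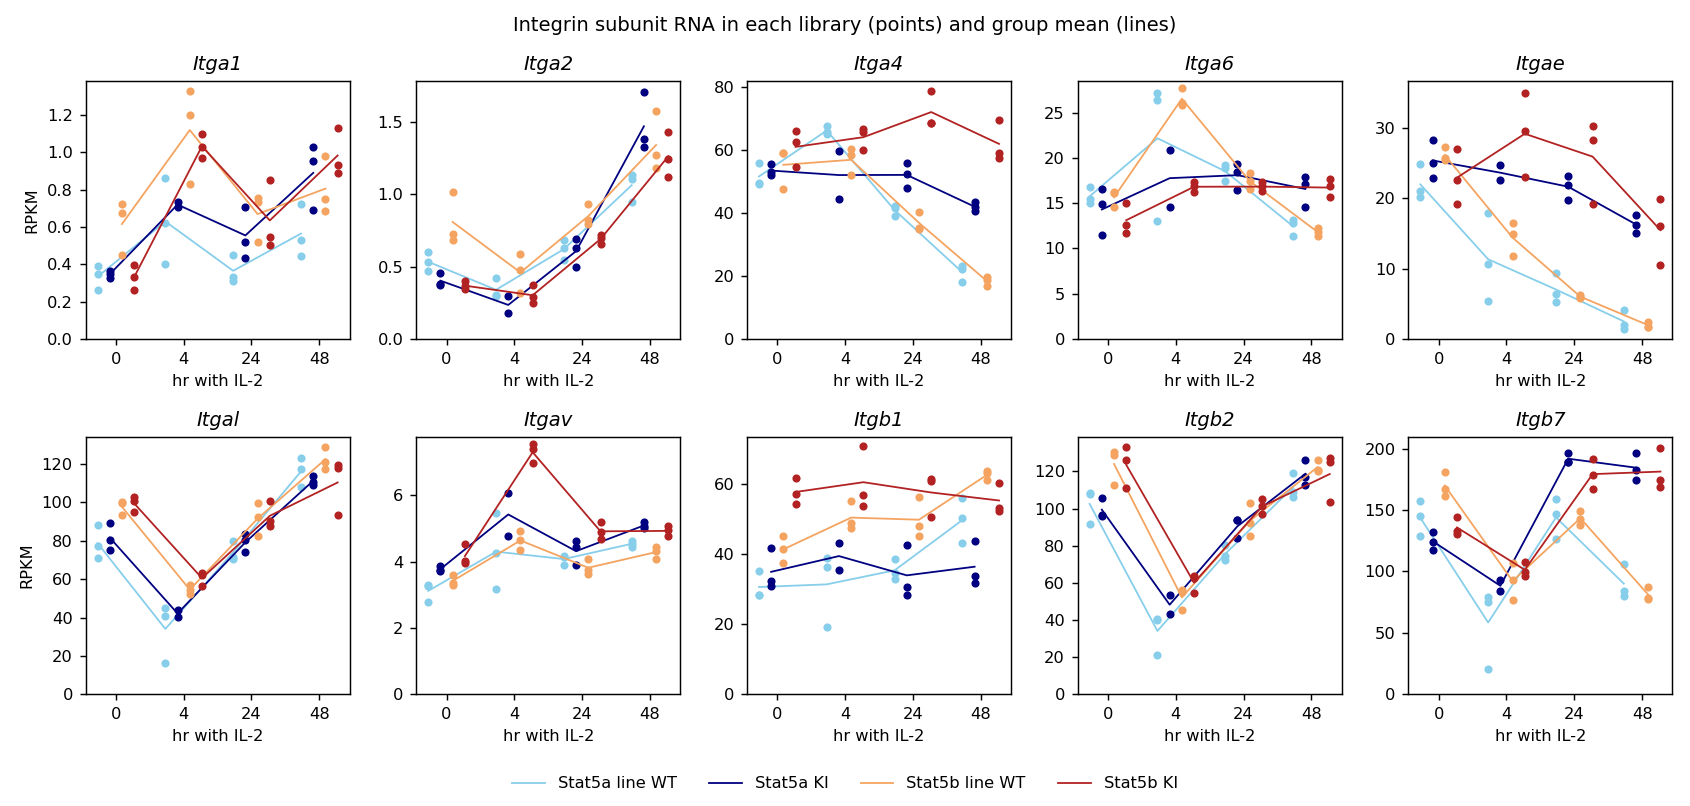
RPKM of the 10 integrin subunit genes (vertical axes, from 0) at 0, 4, 24, and 48 hr with IL-2 (horizontal axes, evenly spaced); points are libraries, lines join group means, and colours give line and genotype. At 48 hr WT libraries hold at most 4.10 RPKM of Itgae and KI libraries at least 10.5, and Itgal and Itgb2 dip at 4 hr in all 4 genotypes.

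Itgae RNA fell in WT cells with IL-2. At 0 hr the 3 Stat5a line WT libraries held 24.8, 20.1, and 20.9 RPKM, and at 48 hr they held 4.10, 2.00, and 1.38 RPKM. WT libraries of the Stat5b line held 25.7, 27.2, and 25.5 RPKM at 0 hr and 1.75, 1.68, and 2.41 RPKM at 48 hr. The libraries of the 2 times did not overlap in either line. Itgae fell by 3.34 ± 0.280 (log2 fold change ± SE, here and below; adjusted p = 3.37e-13) in the Stat5a line, which is 10.15-fold, and by 3.92 ± 0.289 (adjusted p = 9.41e-15) in the Stat5b line, which is 15.17-fold. At 24 hr the decrease was already 3.52-fold (adjusted p = 1.84e-07) and 4.96-fold (adjusted p = 1.64e-09). Differences were tested with edgeR's quasi-likelihood test over all genes, and a gene was called changed when its adjusted p was 0.05 or less and it moved 2-fold or more. Nothing in the labels says that libraries of a group came from separate mice, so p-values measure only the spread between these libraries.

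Itgae was higher in KI than WT cells at 24 and 48 hr. At 48 hr the Stat5a KI libraries held 15.0, 16.2, and 17.6 RPKM, and the Stat5b KI libraries held 19.8, 10.5, and 16.0 RPKM. Every KI library at 48 hr was above every WT library at 48 hr of either line. Itgae was 6.30-fold higher in Stat5a KI than WT (2.66 ± 0.273, adjusted p = 9.80e-10) and 7.53-fold higher in Stat5b KI than WT (2.91 ± 0.279, adjusted p = 2.46e-11). At 24 hr it was 2.94-fold (adjusted p = 6.12e-05) and 4.22-fold (adjusted p = 2.79e-08) higher.

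Before IL-2 the genotypes were close. At 0 hr the Stat5a KI libraries held 22.9, 24.9, and 28.2 RPKM and the Stat5b KI libraries 27.0, 19.1, and 22.6 RPKM, overlapping the WT libraries in both lines. The KI differences at 0 hr were 0.19 ± 0.250 (adjusted p = 0.787) and -0.25 ± 0.250 (adjusted p = 0.519), and at 4 hr they were 0.84 ± 0.278 (adjusted p = 0.0260) and 0.91 ± 0.253 (adjusted p = 0.00615), below 2-fold. Without replicate 2 of Stat5a line WT at 4 hr, the Stat5a value at 4 hr was 0.65 (adjusted p = 0.132). The IL-2 response itself (48 hr against 0 hr) differed between KI and WT by 2.47 ± 0.366 (adjusted p = 4.05e-06) in the Stat5a line and by 3.16 ± 0.372 (adjusted p = 5.53e-09) in the Stat5b line. Its KI effect at 48 hr differed between the lines by 0.26 ± 0.373 (adjusted p = 0.734). These comparisons share libraries and are not independent of each other.

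In order of group means, the 8 highest Itgae groups were all 4 groups at 0 hr and the KI groups at 4 and 24 hr, and the ranges of each neighbouring pair among them overlapped. Both KI groups at 48 hr came next, followed by both WT groups at 4 hr, both WT groups at 24 hr, and both WT groups at 48 hr. Neighbouring ranges separated below Stat5a KI at 24 hr and between the WT groups at 24 and 48 hr.

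Itgb7, the only partner of Itgae, moved in 2 steps in WT cells. In Stat5a line WT its libraries held 128.5, 144.9, and 157.6 RPKM at 0 hr, 75.4, 20.8, and 79.3 RPKM at 4 hr, 158.9, 126.1, and 146.9 RPKM at 24 hr, and 106.3, 80.3, and 83.8 RPKM at 48 hr. In Stat5b line WT they held 161.5, 167.3, and 180.9 RPKM at 0 hr, 76.6, 93.2, and 106.9 RPKM at 4 hr, 138.2, 142.9, and 148.9 RPKM at 24 hr, and 77.3, 78.4, and 87.7 RPKM at 48 hr. WT levels were thus low at 4 hr, higher at 24 hr, and low again at 48 hr. The 24 hr libraries overlapped those at 0 hr in the Stat5a line (-0.17 ± 0.157, adjusted p = 0.375). In the Stat5b line they lay below all 0 hr libraries (-0.43 ± 0.157, adjusted p = 0.017), by less than 2-fold. Itgb7 fell by 1.37 ± 0.160 (adjusted p = 3.77e-09) and by 1.06 ± 0.159 (adjusted p = 6.79e-07) at 4 hr. At 48 hr it fell by 1.24 ± 0.159 (adjusted p = 1.13e-08) in the Stat5b line, and the value in the Stat5a line, -0.88 ± 0.158 (adjusted p = 7.13e-06), was below 2-fold but was -1.02 and passed without replicate 1 of Stat5a line WT at 48 hr.

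KI libraries did not show this second low level of Itgb7. At 48 hr the Stat5a KI libraries held 174.4, 196.2, and 182.6 RPKM and the Stat5b KI libraries 200.7, 168.7, and 174.3 RPKM, above all WT libraries of that time. Itgb7 was 2.12-fold higher in Stat5b KI than WT (1.08 ± 0.159, adjusted p = 2.73e-07), and the Stat5a value was 0.98 ± 0.158 (adjusted p = 4.07e-06), just below 2-fold. Without replicate 1 of Stat5a line WT at 48 hr the Stat5a value was 1.13 and passed. At 0 hr the Stat5b KI libraries held 144.2, 130.3, and 132.9 RPKM, below all WT libraries of that line, a difference of -0.38 ± 0.157 that did not pass (adjusted p = 0.0732). The responses differed between KI and WT by 1.21 ± 0.223 (adjusted p = 9.17e-05) in the Stat5a line and by 1.47 ± 0.223 (adjusted p = 9.12e-07) in the Stat5b line. At 4 hr the KI libraries were low as well, with 92.8 and 83.9 RPKM in Stat5a KI and 107.6, 96.7, and 99.8 RPKM in Stat5b KI.

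Itga4, which can pair with either Itgb7 or Itgb1, fell by 48 hr in WT cells of both lines. The Stat5a line WT libraries went from 49.1, 49.6, and 55.7 RPKM at 0 hr to 23.1, 18.1, and 22.1 RPKM at 48 hr, and those of the Stat5b line from 59.1, 59.1, and 47.4 RPKM to 18.7, 19.6, and 16.8 RPKM. The decrease was 2.81-fold (adjusted p = 7.25e-12) and 3.39-fold (adjusted p = 1.03e-13). At 48 hr the Stat5b KI libraries held 58.9, 57.3, and 69.3 RPKM, and the Stat5a KI libraries 41.9, 40.6, and 43.3 RPKM. Both KI groups lay above all WT libraries of that time, and the Stat5b KI group lay above the Stat5a KI group.

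Itga4 was 3.19-fold higher in Stat5b KI than WT at 48 hr (1.67 ± 0.141, adjusted p = 9.75e-13). The Stat5a value was 0.94 ± 0.139 (adjusted p = 9.25e-07), below 2-fold, and was 1.01 without replicate 1 of Stat5a line WT at 48 hr. The KI effects of the lines differed by 0.74 ± 0.195 (adjusted p = 0.0111), larger in the Stat5b line but below 2-fold. The responses differed between KI and WT by 1.60 ± 0.195 (adjusted p = 1.34e-08) in the Stat5b line. In the Stat5a line they differed by 0.90 ± 0.195 (adjusted p = 5.64e-04). At 24 hr Itga4 was already higher in Stat5b KI than WT, by 0.94 ± 0.138 (adjusted p = 5.6e-07), below 2-fold. The Stat5a value at 24 hr was 0.28 ± 0.137 (adjusted p = 0.159). At 4 hr it had the other sign, -0.69 ± 0.156 (adjusted p = 0.0027), and was -0.40 without replicate 2 of Stat5a line WT.

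Against Itgb7 per length, Itgae stood at 0.155 ± 0.0330 (SD, n = 3) in Stat5a line WT and 0.154 ± 0.0117 (SD, n = 3) in Stat5b line WT at 0 hr. At 48 hr the ratio was 0.0266 ± 0.0112 and 0.0239 ± 0.00318 (SD, n = 3 each) in WT, and 0.0883 ± 0.00719 and 0.0844 ± 0.0193 in KI. The ratio of Itga4 to Itgb1 was 0.431 ± 0.0925 and 0.293 ± 0.0170 in WT at 48 hr, and 1.17 ± 0.203 and 1.13 ± 0.188 in KI. In KI cells at 48 hr Itga4 RNA was about level with Itgb1 RNA, and in WT cells it was below it. RNA ratios do not give the amount of protein pairs at the surface.

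**Figure D2:**
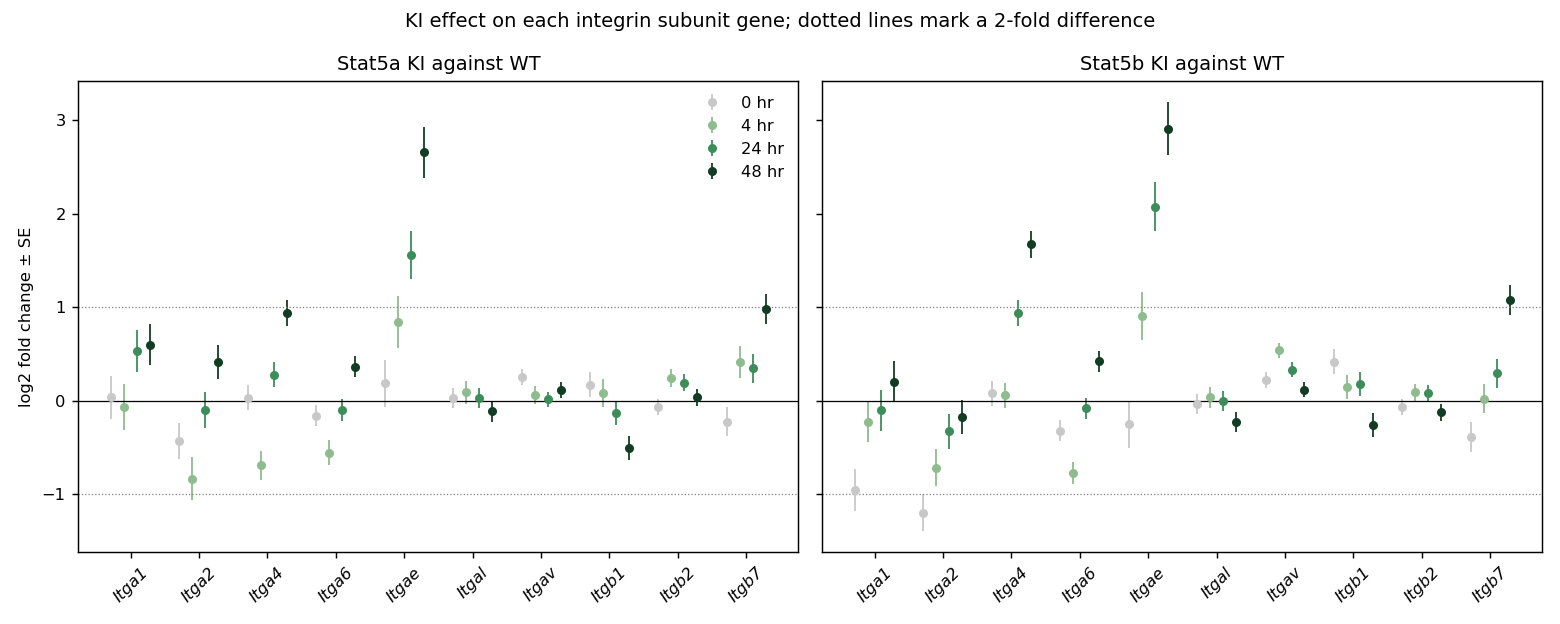
Log2 fold change of KI against WT cells (vertical axis; points, with bars of 1 SE) for each integrin subunit gene at 0, 4, 24, and 48 hr, for the Stat5a line (left) and the Stat5b line (right). Itgae goes from near 0 at 0 hr to 2.66 and 2.91 at 48 hr, Itga4 and Itgb7 lie near or above 1 at 48 hr, and Itgal and Itgb2 lie between -0.23 and 0.25.

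Both chains of LFA-1 behaved otherwise. In WT cells Itgal was at 77.3, 71.0, and 88.1 RPKM at 0 hr and 40.9, 16.5, and 45.1 RPKM at 4 hr in the Stat5a line, and at 93.5, 100.1, and 99.5 RPKM and 52.1, 57.0, and 54.6 RPKM in the Stat5b line. Itgb2 was at 91.5, 107.8, and 108.1 RPKM and then 40.8, 21.5, and 40.3 RPKM in the Stat5a line, and at 112.6, 128.6, and 130.6 RPKM and then 45.2, 54.9, and 56.4 RPKM in the Stat5b line. No 4 hr library reached the 0 hr libraries of its line. Itgal fell 2.37-fold (adjusted p = 5.79e-12) and 2.02-fold (adjusted p = 8.16e-10), and Itgb2 fell by 1.58 (adjusted p = 4.88e-17) and by 1.42 (adjusted p = 8.54e-16) on the log2 scale.

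By 48 hr Itgal had group means of 116.1 ± 7.71 and 122.4 ± 5.70 RPKM (SD, n = 3) in WT. Itgb2 had means of 111.6 ± 6.77 and 122.2 ± 3.26 RPKM. Against 0 hr the tested change of Itgal was 0.35 ± 0.109 (adjusted p = 0.00439) and 0.15 ± 0.109 (adjusted p = 0.218). That of Itgb2 was -0.09 ± 0.0880 (adjusted p = 0.386) and -0.19 ± 0.0880 (adjusted p = 0.0494), all below 2-fold. RPKM is scaled to mapped reads and the test is scaled otherwise, so ratios of RPKM can differ from tested changes. In KI cells Itgal was at 42.2 and 60.5 RPKM on average at 4 hr and at 111.2 and 110.3 RPKM at 48 hr, and the KI and WT courses ran close together. Neither gene was called in any KI comparison, and the KI differences at 48 hr were -0.11 ± 0.109 and -0.23 ± 0.109 for Itgal and 0.04 ± 0.0880 and -0.12 ± 0.0880 for Itgb2. The ratio of Itgal to Itgb2 per length stayed between 0.658 and 1.15 over the 47 libraries.

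Replicate 2 of Stat5a line WT at 4 hr had the fewest reads of the 47 libraries, and 44.9% of its mapped reads lay on the longest transcripts, against 71.7% and 72.9% in the other libraries of its group. RPKM was lower in it than in both of them for 9 of the 10 members, all but Itga4. Without this library the 4 hr values in the Stat5a line were -1.05 for Itgal, -1.52 for Itgb2, and -1.07 for Itgb7, and all 3 stayed called. The fold changes of Itgal and Itgb7 at 4 hr in the Stat5b line are close to 2-fold and were below it without some single libraries, and so was that of Itgae (2.05-fold, adjusted p = 7.88e-04).

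The collagen receptor chains Itga1 and Itga2 were expressed at low levels. Itga2 was lower in Stat5b KI than WT before IL-2, with 0.398, 0.343, and 0.364 RPKM against 0.681, 1.02, and 0.725 RPKM, a 2.29-fold difference (adjusted p = 3.01e-05). At 48 hr both genotypes were close, with 1.43, 1.24, and 1.12 RPKM in KI and 1.27, 1.57, and 1.18 RPKM in WT. At 4 hr Itga2 was at 0.317, 0.587, and 0.474 RPKM in Stat5b line WT, a log2 change from 0 hr of -0.99 ± 0.191 (adjusted p = 4.08e-05), just below 2-fold. Its IL-2 response from 0 to 48 hr differed between genotypes by 1.03 ± 0.265 (adjusted p = 0.00142). Itga1 was also lower at 0 hr, with 0.396, 0.334, and 0.263 RPKM in Stat5b KI against 0.450, 0.722, and 0.674 RPKM in WT. That difference, -0.95 ± 0.229 (adjusted p = 0.00227), was below 2-fold. Unlike Itga2, Itga1 was higher at 4 hr than at 0 hr in Stat5b line WT, by 0.69 ± 0.219 (adjusted p = 0.00875), below 2-fold. Its response from 0 to 48 hr differed between genotypes by 1.16 ± 0.315 (adjusted p = 0.00236). At 48 hr Itga1 was at 0.750, 0.982, and 0.683 RPKM in WT and 1.13, 0.931, and 0.887 RPKM in KI. In both genes the libraries of the genotypes separated at 0 hr and overlapped at 48 hr. Itga2 is also carried by NK cells. At 0 hr the 5 NK cell markers summed to 12.3 ± 2.59 RPKM (SD, n = 3) in Stat5b line WT and 4.14 ± 0.736 RPKM in Stat5b KI. Klre1 was the most abundant, and Klre1 and Klrb1c were called lower in KI, beside 0.604% of all genes. The 6 markers of memory-phenotype CD8 T cells summed to 1060 ± 208.9 and 682.5 ± 63.3 RPKM, led by Ccl5, and 3 had an adjusted p of 0.05 or less, all lower in KI by less than 2-fold. None of these markers was at 0 in a whole group, and their part in the Itga2 result was not tested. The difference of response for Itga2 is close to 2-fold and fell below it under several settings, among them DESeq2 (0.997) and leaving out replicate 2 of Stat5b line WT at 0 hr (0.807).

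Itga6 and Itgb1, chains of laminin receptors, and Itgav, a chain of receptors for RGD ligands, were called in none of the 17 comparisons. Itga6 was at 26.6 ± 0.999 RPKM (SD, n = 3) in Stat5b line WT and 16.8 ± 0.601 RPKM in Stat5b KI at 4 hr, a difference of -0.77 ± 0.115 (adjusted p = 3.70e-06) below 2-fold. At 48 hr its difference had the other sign, 0.37 ± 0.115 (adjusted p = 0.00912) in Stat5a KI and 0.42 ± 0.115 (adjusted p = 0.00176) in Stat5b KI, and its response differed between KI and WT by 0.52 ± 0.162 (adjusted p = 0.0140) and 0.74 ± 0.163 (adjusted p = 2.33e-04), also below 2-fold. Itgav was highest in Stat5b KI at 4 hr, with 7.53, 7.39, and 6.96 RPKM against 4.91, 4.34, and 4.65 RPKM in WT, which is 1.45-fold (adjusted p = 6.02e-06). Itgb1 was at 62.6 ± 1.41 RPKM in Stat5b line WT and 55.3 ± 4.43 RPKM in Stat5b KI at 48 hr (adjusted p = 0.0844). In the Stat5a line it was at 49.8 ± 6.45 RPKM in WT and 36.5 ± 6.43 RPKM in KI at 48 hr, a difference of -0.50 ± 0.131 (adjusted p = 0.00190). Its IL-2 response differed between KI and WT by -0.68 ± 0.186 (adjusted p = 0.00572) in the Stat5a and -0.68 ± 0.186 (adjusted p = 0.00254) in the Stat5b line, all below 2-fold. At 0 hr Itgb1 was higher in Stat5b KI than WT by 0.42 ± 0.131 (adjusted p = 0.0177), below 2-fold, with 54.5, 61.7, and 57.1 RPKM against 37.6, 41.5, and 45.1 RPKM.

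Counted over the 10 members, WT cells with IL-2 had decreases of 2-fold or more and no such increases. In the Stat5a line 3 members fell at 4 hr (Itgal, Itgb2, Itgb7), 1 at 24 hr (Itgae), and 2 at 48 hr (Itga4, Itgae), while 11.4%, 14.2%, and 22.3% of all genes tested were called lower. In the Stat5b line 4 fell at 4 hr (the same 3 and Itgae), 1 at 24 hr (Itgae), and 3 at 48 hr (Itga4, Itgae, Itgb7), against 9.89%, 13.5%, and 20.7% of all genes. At 4 and 24 hr 10.0% and 8.72% of all genes were called higher in Stat5a line WT and 5.83% and 9.07% in Stat5b line WT, and 0 of 10 members is near these shares. At 48 hr 14.3% of all genes were called higher in the Stat5a and 14.6% in the Stat5b line, and none of the members was by edgeR or DESeq2, although 5 and 2 of them had a positive value at an unadjusted p under 0.05. The median change of the members at 48 hr was 0.12 in the Stat5a and -0.02 in the Stat5b line, beside -0.12 and -0.13 over all genes tested. With limma on log2(RPKM + 1) the order turned, with medians of 0.18 and 0.07 over the members and 0.24 and 0.18 over all genes tested.

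Between KI and WT cells no member was called at 0 or 4 hr in the Stat5a line, where 1.04% and 6.63% of all genes were called. In the Stat5b line 1 was called at 0 hr (Itga2, lower), where 0.604% of all genes were called lower, and none at 4 hr, where 10.4% of all genes were called. DESeq2 also called none in these 3 comparisons without a call, and at an unadjusted p under 0.05 by edgeR there were 2 members at 0 hr and 6 at 4 hr in the Stat5a line and 4 at 4 hr in Stat5b KI. The Stat5a KI members called higher were 1 at 24 hr and 1 at 48 hr (Itgae both times), beside 3.21% and 6.35% of all genes. The Stat5b KI members called higher were 1 at 24 hr (Itgae) and 3 at 48 hr (Itga4, Itgae, Itgb7), beside 10.9% and 16.5% of all genes. None was lower at 48 hr by edgeR or DESeq2 (1 in each line at an unadjusted p under 0.05), where 2.43% of all genes in the Stat5a and 9.81% in the Stat5b line were.

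The IL-2 response at 48 hr was higher in KI than WT for 2 members in the Stat5a line (Itgae, Itgb7) and for 5 in the Stat5b line (Itga1, Itga2, Itga4, Itgae, Itgb7), beside 3.16% and 10.3% of all genes. The KI effect at 48 hr differed between the lines for none by edgeR or DESeq2 (2 at an unadjusted p under 0.05), beside 2.06% of all genes. The median difference of response over the members was 0.54 and 0.88, beside 0.03 and 0.08 over all genes tested. With limma on log2(RPKM + 1) it was 0.32 and 0.38, beside -0.01 and -0.04 over all genes tested.

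Over the 16 group means of log2 CPM, Itgal and Itgb2 had a Pearson r of 0.970, and Itgae and Itga4 of 0.89, whereas Itgae and Itgb7 had an r of 0.43. The same 16 groups enter every value, so these values only describe the pattern. The tested genes most like Itgae were Fam214a (r = 0.973), Plekhg2 (r = 0.971), and Mxd4 (r = 0.971). Those most like Itga4 were Rbak (r = 0.973), Asap1 (r = 0.970), and Ccpg1 (r = 0.967), and those most like Itgb7 were Klhl17 (r = 0.971), Rasal3 (r = 0.970), and Rassf5 (r = 0.969), an adaptor that links the GTPase Rap1 to LFA-1. Itgal was most like Tm6sf1 (r = 0.991) and, after it, its own partner Itgb2, which was most like Ly9 (r = 0.983). The genes most like the other members were Ptges3l for Itga1 (r = 0.854), Cep250 for Itga2 (r = 0.941), Whsc1l1 for Itga6 (r = 0.963), Lgals3 for Itgav (r = 0.893), and Ier3 for Itgb1 (r = 0.879).

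The other integrin subunit genes, 16 of 17 tested, are mainly chains of myeloid cells, platelets, and tissue cells. In WT cells at 48 hr 11 fell in the Stat5a and 12 in the Stat5b line, beside 22.3% and 20.7% of all genes. None rose, beside 14.3% and 14.6% of all genes. Their median change was -2.34 and -2.50, beside -0.12 and -0.13 over all genes tested. In KI cells at 48 hr 7 were higher in the Stat5a and 9 in the Stat5b line, beside 6.35% and 16.5% of all genes. None was lower, beside 2.43% and 9.81% of all genes. Their median KI effect was 0.78 and 1.80, beside 0.04 and 0.10 over all genes tested. Itgax, which encodes CD11c of dendritic cells, went from 10.5 ± 1.24 to 1.23 ± 0.276 RPKM (SD, n = 3) in Stat5a line WT and from 11.9 ± 2.12 to 0.935 ± 0.207 RPKM in Stat5b line WT. It was at 3.24 ± 0.531 and 4.20 ± 0.786 RPKM in KI at 48 hr. The largest KI effects at 48 hr were those of Itga9 in the Stat5a line (2.10 ± 0.410, adjusted p = 7.09e-05) and Itga7 in the Stat5b line (3.53 ± 0.385, adjusted p = 5.22e-10).

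**Figure D3:**
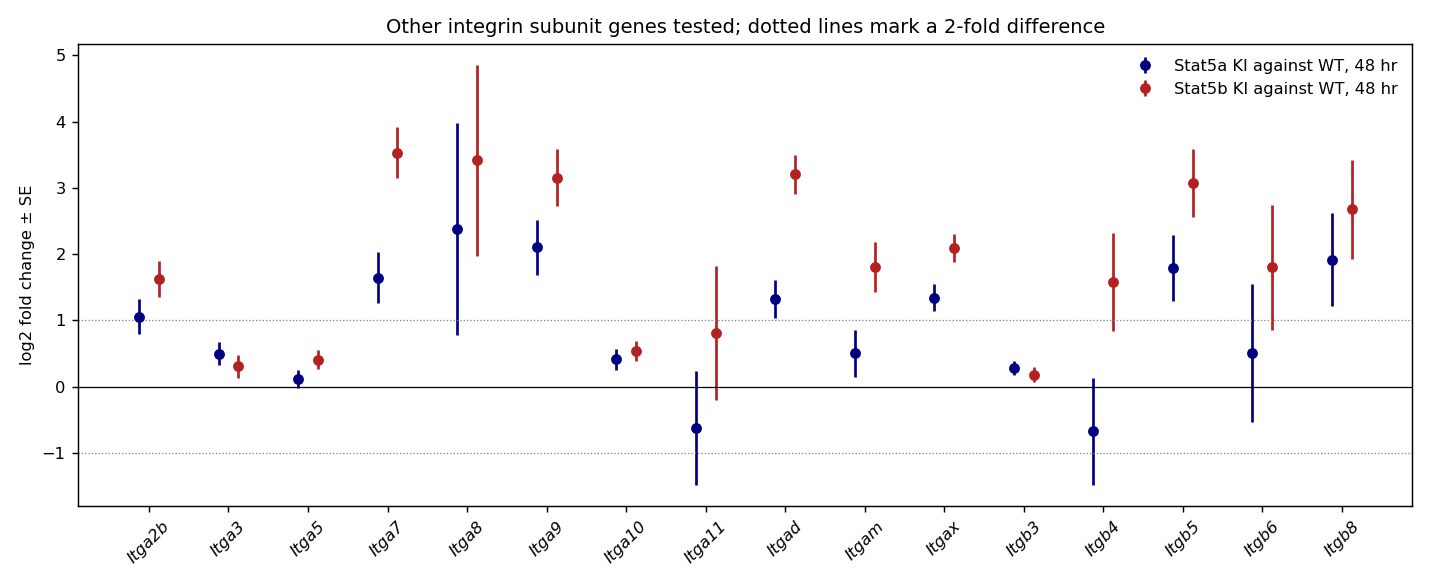
Log2 fold change of KI against WT cells at 48 hr (vertical axis; points, with bars of 1 SE) for the 16 other integrin subunit genes tested, in the Stat5a line (blue) and the Stat5b line (red). The genes called higher, 7 in the Stat5a and 9 in the Stat5b line, include the myeloid chains Itgad and Itgax.

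Markers of other cell types were also higher in KI cells at 48 hr. The 6 B cell markers summed to 25.4 ± 12.2 RPKM (SD, n = 3) in Stat5a line WT and 100.1 ± 8.57 RPKM in Stat5a KI at 48 hr, and to 11.2 ± 1.12 and 114.3 ± 3.13 RPKM in the Stat5b line, with Cd79b the most abundant in WT and Cd79a in KI. All 6 were called higher in KI in both lines, beside 6.35% and 16.5% of all genes. Of the 6 macrophage and monocyte markers, the 5 listed in the files summed to 4.90 ± 1.85 and 29.2 ± 17.6 RPKM in the Stat5a line and to 3.44 ± 0.575 and 62.5 ± 14.4 RPKM in the Stat5b line, with Cd68 leading in WT and Lyz2 in KI. The 6 dendritic cell markers summed to 6.81 ± 1.57 and 9.92 ± 2.74 RPKM, with overlapping libraries, and to 6.05 ± 0.725 and 16.0 ± 0.862 RPKM, with Batf3 leading in WT and Siglech in KI. In Stat5a KI 4 of them were called higher and Batf3 was called lower, and in Stat5b KI 5 were called higher. Of all genes 6.35% were called higher and 2.43% lower in Stat5a KI, and 16.5% higher in Stat5b KI. The 4 CD4 T cell markers summed to 4.99 ± 0.412 and 12.9 ± 0.368 RPKM and to 3.77 ± 0.319 and 17.4 ± 0.285 RPKM, with Zbtb7b leading in WT and Cd4 in KI. No marker of these lists was at 0 in a whole group at 0 or 48 hr. Dendritic cells and regulatory CD4 T cells can carry CD103, and the part of these cells in the Itgae result was not tested.

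At 0 hr the summed B and dendritic cell markers were already higher on average in KI than WT cells. Itgae was not called between KI and WT at 0 hr in either line. The B cell markers summed to 110.7 ± 52.9 and 248.1 ± 25.2 RPKM in WT and KI of the Stat5a line and to 50.8 ± 4.07 and 200.5 ± 2.61 RPKM in the Stat5b line. The dendritic cell markers summed to 40.1 ± 10.3 and 61.9 ± 11.6 RPKM and to 39.5 ± 5.05 and 77.9 ± 15.9 RPKM. The CD4 T cell markers summed to 16.0 ± 4.22 and 27.5 ± 0.957 RPKM in WT and KI of the Stat5a line. In Stat5b line WT they summed to 11.8, 10.6, and 13.6 RPKM and in Stat5b KI to 26.7 ± 4.35 RPKM. In Stat5b KI the dendritic cell markers went from 77.9 RPKM at 0 hr to 16.0 RPKM at 48 hr. The CD4 T cell markers went from 26.7 to 17.4 RPKM, and Itgae from 22.9 ± 3.94 to 15.5 ± 4.66 RPKM. In Stat5b line WT the CD4 T cell markers were at 3.40 to 4.01 RPKM at 48 hr, below all 3 libraries at 0 hr. In bulk RNA, fewer cells of a type and less RNA per cell cannot be told apart. How much Itgae RNA came from other cell types was not tested at any time.

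Markers of naive T cells were also lower at 48 hr in WT and higher in KI than WT at 48 hr. The 5 described here, Ccr7, Lef1, Il7r, Klf2, and S1pr1, summed to 1078 ± 171.7 and 1012 ± 116.4 RPKM (SD, n = 3) in Stat5a and Stat5b line WT at 0 hr and to 302.4 ± 31.7 and 257.4 ± 13.3 RPKM at 48 hr, with Ccr7 the most abundant at 48 hr. In KI they summed to 1106 ± 159.9 and 847.1 ± 94.8 RPKM at 0 hr and to 554.7 ± 9.33 and 680.4 ± 62.6 RPKM at 48 hr. Of the 5, Ccr7, Il7r, Klf2, and S1pr1 were called lower at 48 hr in WT of both lines, beside 22.3% and 20.7% of all genes, and Lef1 was lower by less than 2-fold. The WT sums were 835.3 ± 287.5 and 987.2 ± 40.2 RPKM at 4 hr. At 24 hr they were 600.7 ± 42.6 and 547.9 ± 6.56 RPKM. The Stat5a line WT libraries at 4 hr ranged from 503.6 to 1014 RPKM, and that group holds replicate 2 with its few reads. Itgb7 was low at 4 hr in WT. At 24 hr Itgb7 was near its starting level in the Stat5a line and 1.35-fold below it in the Stat5b line. The part of the naive state in the Itgb7 result was not tested. Against WT at 48 hr Klf2 was called higher in Stat5a KI and Il7r, Klf2, Lef1, and S1pr1 in Stat5b KI, beside 6.35% and 16.5% of all genes.

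Of the 6 markers of memory-phenotype CD8 T cells, 1 was lower in Stat5a KI than WT at 48 hr, and 3 were lower and 1 higher in Stat5b KI. Of the 5 NK cell markers, 1 was lower in Stat5a KI, and 2 were lower and 3 higher in Stat5b KI. Of the 5 platelet markers 2 were higher in Stat5b KI. Over all genes 2.43% were called lower in Stat5a KI, and 9.81% lower and 16.5% higher in Stat5b KI. The part of these cell states in the integrin results was not tested.

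**Figure D4:**
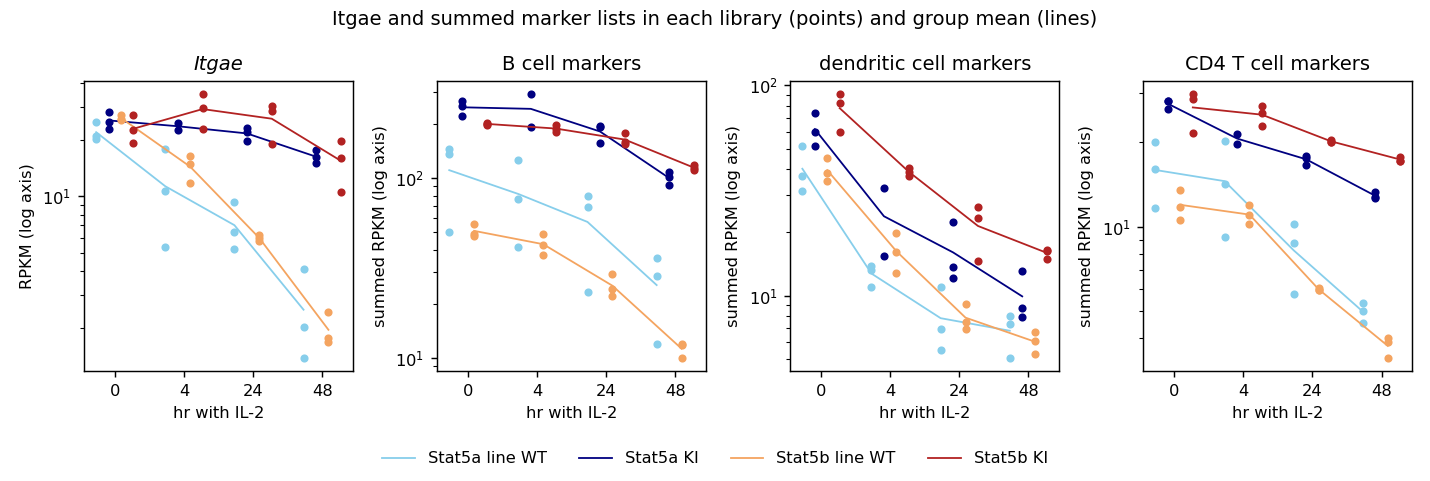
Itgae RPKM and the summed RPKM of marker genes of B, dendritic, and CD4 T cells (vertical axes, log scale) at 0, 4, 24, and 48 hr with IL-2; points are libraries and lines join group means. At 0 hr Itgae overlaps between genotypes and B cell markers are higher in KI. At 48 hr the group means in all 4 panels are lower in WT than KI.

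TGF-beta is known to induce Itgae, and RUNX3 to maintain it in CD8+ T cells, whereas T-bet (Tbx21) and Eomes are known to restrain it. Of 13 genes tested of this pathway and its factors, 2 rose and 4 fell in WT at 48 hr in each line, namely Eomes and Tbx21 upwards and Ski, Skil, Smad7, and Tgfbr2 downwards. Over all genes 14.3% and 14.6% rose and 22.3% and 20.7% fell, and the median change of the 13 was -0.17 and -0.12. Tbx21 was at 5.06 ± 0.329 and 9.53 ± 1.59 RPKM (SD, n = 3) at 0 hr and 21.5 ± 2.02 and 26.0 ± 0.596 RPKM at 48 hr in WT. The receptor gene Tgfbr2 went from 66.5 ± 4.17 to 31.5 ± 1.07 RPKM and from 74.0 ± 3.05 to 31.3 ± 0.420 RPKM in WT, and was at 50.1 ± 0.197 and 63.0 ± 5.62 RPKM in KI at 48 hr.

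In KI against WT at 48 hr, 1 of the 13 was lower in the Stat5a line, Eomes (-1.35 ± 0.186, adjusted p = 2.59e-07), and 2 in the Stat5b line, with Tbx21 lowest (-1.17 ± 0.154, adjusted p = 2.94e-08). Over all genes 2.43% and 9.81% were called lower. Smad7 was called higher in the Stat5b line (1.38 ± 0.168, adjusted p = 6.59e-09), beside 16.5% of all genes, and none of the 13 was called higher in the Stat5a line, beside 6.35%. Tgfbr2 was 0.62 ± 0.0686 (adjusted p = 4.54e-09) and 0.93 ± 0.0689 (adjusted p = 3.46e-14) higher, below 2-fold. At 48 hr Runx3 was at 38.1 ± 1.22 and 41.3 ± 2.79 RPKM in WT and KI of the Stat5a line. In the Stat5b line it was at 39.1 ± 1.77 and 36.5 ± 2.21 RPKM. The part of this pathway and its factors in the Itgae result was not tested.

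Of the 36 integrin activation and adaptor genes, none rose in WT at 48 hr, where 14.3% and 14.6% of all genes were called higher. There 7 fell in the Stat5a and 4 in the Stat5b line, which is no more than the 22.3% and 20.7% of all genes called lower. Their median change was -0.17 and -0.26, beside -0.12 and -0.13 over all genes tested. Cytip, which encodes a regulator that loosens LFA-1 adhesion, fell by 1.54 and 1.71 on the log2 scale, from 84.8 ± 7.46 to 33.7 ± 1.03 RPKM and from 89.3 ± 2.84 to 30.7 ± 1.01 RPKM. In KI against WT at 48 hr, 1 was higher in the Stat5a and 4 in the Stat5b line, no more than the 6.35% and 16.5% of all genes called higher. Both were led by Parvb (1.58 ± 0.463 and 4.12 ± 0.524), an adaptor at 0.131 ± 0.0554 and 0.294 ± 0.0635 RPKM in KI. The genes that carry the activation of leukocyte integrins did not reach 2-fold: Tln1, encoding talin, was at 0.32 ± 0.0985 and 0.22 ± 0.0984, and Fermt3, encoding kindlin-3, at -0.12 ± 0.108 and -0.30 ± 0.108.

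Of the integrin ligand genes 10 of 11 were tested. In WT at 48 hr 1 rose, Spp1 (osteopontin), by 4.24 ± 0.312 and 3.62 ± 0.305, beside 14.3% and 14.6% of all genes called higher. In each line 5 fell, with Fn1 falling most, beside 22.3% and 20.7% of all genes called lower. The median change of the 10 was -1.48 and -1.47, beside -0.12 and -0.13 over all genes tested. In KI against WT 2 were higher in the Stat5a and 5 in the Stat5b line, beside 6.35% and 16.5% of all genes. None was lower, beside 2.43% and 9.81% of all genes. Vcam1 was at 0.318 ± 0.174 and 2.52 ± 2.01 RPKM in WT and KI of the Stat5a line and at 0.131 ± 0.0338 and 4.42 ± 0.753 RPKM in the Stat5b line at 48 hr. Icam1, a ligand of LFA-1, was at 32.5 ± 0.281 and 31.8 ± 1.55 RPKM and at 30.5 ± 1.34 and 30.1 ± 2.49 RPKM, with KI differences of -0.08 ± 0.103 and -0.10 ± 0.103.

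By position (GRCm38.p6), Itga6, Itga4, and Itgav all lie on chromosome 2, at chr2:71786886-71858427, chr2:79255426-79333114, and chr2:83722303-83806917, and Itga2 and Itga1 lie next to each other on chromosome 13, at chr13:114833081-114932100 and chr13:114958079-115101964. Itgal lies at chr7:127296139-127335137, Itgb1 at chr8:128685654-128733579, Itgb2 at chr10:77530329-77565708, Itgae at chr11:73090505-73147449, and Itgb7 at chr15:102215994-102233405. The counts are sums over the exons of 1 transcript each, the longest in the file. By the RefSeq annotation, exons of Itga4 share 166 bases with Cerkl and exons of Itgae share 20 bases with Haspin, both on the opposite strand, and reads in these bases cannot be told apart without strand.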

How the data were processed

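Per the labels and the study's methods, 50-base single-end reads were aligned with TopHat2 2.0.11 to mm10, and the authors deposited, for each library, read counts and RPKM values for each RefSeq transcript. The counting tool and its use of strand are not given in the sources used here. The longest transcript of each symbol was kept (31682 transcripts, 23992 symbols). The deposited counts were tested with edgeR 4.0.16 (TMM, filterByExpr with a minimum count of 10, quasi-likelihood test, R 4.3.3) in 1 fit of 47 libraries with a mean for each group and Benjamini-Hochberg adjustment over 15566 genes. The deposited RPKM values were used for levels. All 10 members were named. The 3 genes most like each member by Pearson r were found, and the top ones are named. Of the other lists, counts and the called genes with the largest rise and fall at 48 hr were named, and further genes were chosen after their values were seen. Members and lists were chosen with earlier results of these data known. The test was checked on simulated data, and the outcome is not given here. Same-numbered WT libraries of the Stat5a line deviated together at 24 and 48 hr (correlations of 0.117 to 0.419), and no other comparison had all its pairs above 0.1. The correlations come from the data, as the labels tie no numbers to mice. DESeq2 1.42.0, limma 3.58.1 on log2(RPKM + 1), other filters, transcripts, and left-out libraries were alternatives. Of the 6 naive T cell markers listed, 1 is not reported here.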

Additional observations from a re-analysis of the deposited data

Results flagged for a closer look

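The IL-2 response at 48 hr was tested for a difference between KI and WT cells, and 7 values passed. In the Stat5a line the difference (KI minus WT, log2) was 2.47 for Itgae and 1.21 for Itgb7. In the Stat5b line it was 3.16 for Itgae, 1.60 for Itga4, 1.47 for Itgb7, 1.16 for Itga1, and 1.03 for Itga2. For Itga1 and Itga2 the Stat5b KI and WT libraries separated at 0 hr and overlapped at 48 hr, for Itgae and Itga4 they overlapped at 0 hr and separated at 48 hr, and for Itgb7 in the Stat5b line they separated at both times, with the KI libraries lower at 0 hr and higher at 48 hr. The rule used for single outlying libraries was not applied to groups of 3. Between libraries of 1 group, the chi-square per gene was 200.3 and 203.6 for the pairs with replicate 2 of Stat5a line WT at 4 hr and at most 50 for all other pairs.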

How the results depend on the processing

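Over all settings, 492 of 510 recomputed counts of members called were within 1.5 times the count reported. Of the values of single members, 2503 kept their side of the threshold, 22 lost the call, 25 gained it, and none reversed. The settings were DESeq2 size factors, DESeq2, no filter, limma on RPKM, all 48 libraries, the shortest transcript, only the groups compared, the replicate block, and each library left out. Itgae kept its calls at 24 and 48 hr in every setting run. The cause of the changes listed here was not tested. By its form, log2(RPKM + 1) understates changes of low genes. With it Itgal (-0.829) and Itgb7 (-0.886), which are not low genes, also lost their calls at 4 hr in Stat5b line WT.

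With limma on log2(RPKM + 1), the members lower at 4 hr in Stat5b line WT were 1, those higher in Stat5a KI were 1 at 4 hr and 2 at 48 hr, those lower in Stat5b KI at 0 hr were 0, and those with a higher response in Stat5b KI were 3. Leaving out 1 library gave 0 to 1 members higher at 4 hr in Stat5a line WT (Itga1, 1.09 without replicate 3 at 0 hr and 1.08 without replicate 3 at 4 hr). It gave 2 to 5 lower at 4 hr in Stat5b line WT, where without replicate 2 at 0 hr Itgae was -0.99 and Itgal -0.98, and without replicate 1 at 4 hr Itgal was -0.96 and Itgb7 -0.91. Itga2 gained the call there with DESeq2 (-1.01), with DESeq2 size factors (-1.01), and without any of 4 single libraries (-1.01 to -1.22). In Stat5a KI at 4 hr it gave 0 to 1 higher (Itgae, 1.16 without WT replicate 1) and 0 to 1 lower (Itga2, -1.05 without WT replicate 3 and -1.19 without KI replicate 1), and at 48 hr 1 to 3 higher (Itga4, 1.01, and Itgb7, 1.13, without WT replicate 1). In Stat5b KI it gave 1 to 2 lower at 0 hr (Itga1, -1.14 without WT replicate 1 and -1.10 without KI replicate 1), 0 to 1 higher at 4 hr (Itgae, 1.01 without WT replicate 3 and 1.10 without KI replicate 2), and 1 to 2 higher at 24 hr (Itga4, 1.02 without WT replicate 1). The members with a higher response in Stat5b KI were 4 to 5, with Itga2 at 0.807 without WT replicate 2 at 0 hr and at 0.906 to 0.972 without WT replicate 1 or 3 or KI replicate 1 at 48 hr, or KI replicate 2 at 0 hr.

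The replicate block changed 1 call of a member: Itgae at 4 hr in Stat5a line WT was -1.06 with the block and passed. Over all genes, limma called fewer in all 17 comparisons (0.174 to 0.511 times as many) and moved the split of higher and lower in 14. At 48 hr it gave 2044 higher and 742 lower in Stat5a line WT, 2001 and 808 in Stat5b line WT, and 583 and 837 in Stat5b KI (beside 2221 and 3476, 2274 and 3223, and 2564 and 1527). At 24 hr these were 1011 and 530, 1146 and 484, and 261 and 480 (beside 1357 and 2213, 1412 and 2096, and 1698 and 898). Stat5b line WT at 4 hr had 497 and 348 (beside 908 and 1540). With all 48 libraries, the genes called in Stat5a KI were 23 (beside 162) at 0 hr, 2668 (beside 1032) at 4 hr, and 449 (beside 692) at 24 hr, those in Stat5b KI at 0 hr 717 (beside 1242), those with a different response in Stat5a KI 606 (beside 973), and those that differed between the lines 86 (beside 321). With only the groups compared, edgeR called 1941 genes at 4 hr in Stat5a line WT (beside 3330), 626 between the lines, and 1 and 0 in Stat5a KI at 0 and 4 hr, with 669 at an unadjusted p under 0.05 at 4 hr.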
